A study of Homo sapiens with 20 samples.

Results

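A set of 10 genes for amino acid carriers was followed in U2OS cells, an osteosarcoma line of human origin in long use, before and after transcription was stopped. They were taken by symbol as carriers linked to ATF4: SLC7A11, SLC3A2, SLC7A5, SLC7A6, SLC7A1, SLC38A2, SLC38A1, SLC1A5, SLC1A4 and SLC6A9. All 10 of the 10 had a probe set, 27 probe sets of the 54675 on the array, and 9 were tested among 14478 genes. SLC6A9, the glycine transporter GLYT1, had 1 probe set, which read 11.9 to 17.9 on all arrays, below the minimum of 26.0 used for testing, and has no test here.

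Amino acids cross the plasma membrane through solute carrier proteins, some of which import against a gradient with sodium while others exchange one amino acid for another. When amino acids run short or the endoplasmic reticulum (ER) is overloaded, kinases phosphorylate the initiation factor eIF2, general translation falls, and translation of the transcription factor ATF4 rises. ATF4 is known to bind C/EBP-ATF response elements (CARE) at carrier and amino acid synthesis genes, and its own mRNA is a known target of nonsense-mediated mRNA decay (NMD), the pathway that needs the RNA helicase UPF1.

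The 20 arrays form 5 conditions with 4 arrays each: untreated control cells, hypoxia below 0.1% oxygen, tunicamycin at 2.5 ug/ml, emetine at 100 ug/ml, and UPF1-depleted cells, written shRent1 in the labels. Tunicamycin blocks N-linked glycosylation, so that misfolded protein builds up in the ER. Emetine halts elongating ribosomes, and Rent1 is another name for UPF1. The labels give a treatment time of 3 hr to every condition, also to control and shRent1 cells, name no control hairpin, and do not say whether a stress went on during the chase. DRB at 100 ug/ml, which blocks elongation by RNA polymerase II, was then added to all conditions, and RNA was taken at addition (0 hr) and after 1.5, 3 and 4.5 hr, with 1 array per condition and time. P-values therefore reflect how single arrays scatter around fitted lines and nothing more. The labels do not state whether the arrays derive from separate cultures, and a batch of cultures or arrays and its condition cannot be told apart. The number of arrays limits the precision.

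Intensities are on a linear scale after RMA normalization, so each value is read against the array's typical transcript, and a transcript that decays like the typical one has a slope near 0. In a bulk sample, fewer cells with a transcript and less of it per cell cannot be told apart. UPF1 itself read 170, 92.4, 94.7 and 89.4 over the 4 times in shRent1 cells and 352 to 392 in control cells, a mean of 30.2% of control. Its other probe set read 58.1 to 85.2 against 104 to 122, or 61.4%. The labelled cell type was checked by markers: vimentin (VIM) read 14534 to 17581 and collagen I (COL1A1) 4721 to 9421, while TWIST1 (8.5 to 11.5), the leukocyte marker PTPRC (8.7 to 13.7) and the endothelial marker CDH5 (11.2 to 15.9) were below 26.0 on all arrays and COL1A2 (17.0 to 29.1) had a median below it. The epithelial genes KRT8, KRT18 and EPCAM were above it and CDH1, KRT19 and ESRP1 had medians below it, and the summed intensity of the 6 was 11985 to 13214 in control, 9796 to 11638 in hypoxia, 11150.0 to 13260.0 in tunicamycin, 11304 to 11989 in shRent1 cells and 9791 to 10562 in emetine. Of 7 blood and endothelial markers, 4 passed the minimum: HBB (62.0 to 140), PECAM1 (48.3 to 104), VWF (27.4 to 57.2) and CD3E (median 30.3). CD14 had a median of 22.4, and the sum of the 7 was 241 to 343 in all conditions. Summed over 10 mesenchymal markers it was 33790 to 36656 in control, 32845 to 37757 in hypoxia, 31061 to 33205 in tunicamycin, 28624 to 30672 in shRent1 cells and 28767 to 29672 in emetine. The log2 ratio of 3' to 5' actin (ACTB) control probe sets, a measure of RNA length, was 0.55 ± 0.10 in control, 2.04 ± 0.13 in hypoxia, 0.54 ± 0.11 in tunicamycin, 1.24 ± 0.06 in shRent1 cells and 2.04 ± 0.19 in emetine (SD, n = 4 each). The same ratio for GAPDH differed less: 0.04 ± 0.04 in control, 0.15 ± 0.04 in hypoxia, 0.00 ± 0.04 in tunicamycin, 0.07 ± 0.02 in shRent1 cells and 0.11 ± 0.03 in emetine. The part of RNA length in the differences below was not tested.

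Promoter sequences bear on the choice of these carriers as ATF4-linked, so the start site windows of RefSeq (build GRCh38.p14, 250 bases before to 50 bases after each start) were searched on both strands for the CARE core TGATGNAA. Windows were present for 9 of the 10 genes. The gene without a window was SLC7A11, so its promoter was not searched for either motif below. At least 1 window of 5 genes, SLC1A4, SLC3A2, SLC38A1, SLC7A1 and SLC1A5, held a match, 5 of their group's 15 windows, against 3.62% of all 35116 windows and 4.46% of all 27305 genes. The matches are given 5′ to 3′ along the gene's strand with the matched letters in capitals, which are the reverse complement of the core for SLC1A4 and SLC3A2.
SLC1A4, chr2:64989377-64989399, plus strand: gttcgcggctcccgtTTGCATCA
SLC3A2, chr11:62881721-62881743, plus strand: aatgtgcaggactccTTACATCA
SLC38A1, chr12:46266513-46266535, minus strand: gtcctcagacccgaaTGATGAAA
SLC7A1, chr13:29595674-29595696, minus strand: ggccgggcgcactgcTGATGAAA
SLC1A5, chr19:46784889-46784926, minus strand: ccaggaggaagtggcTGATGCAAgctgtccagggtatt
With the start site of each window as position 0, the SLC1A5 match began at position −97, and the other 4 lay between positions −7 and 44. The core of the antioxidant response element (ARE) bound by NRF2, TGACNNNGC, was in windows of SLC3A2, SLC7A1, SLC7A6, SLC7A5 and SLC1A5, also 5 of the 9, against 13.3% of windows and 16.1% of genes. SLC3A2, SLC7A1 and SLC1A5 each had both motifs among their windows. Of their ARE matches only that of SLC3A2 is shown, which began at position −37 of a window.
SLC3A2, chr11:62881647-62881685, plus strand: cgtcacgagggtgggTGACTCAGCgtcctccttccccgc
A match is a description of letters in a window and does not show that a factor binds there.

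SLC7A11 encodes xCT, the light chain of the cystine/glutamate exchanger that supplies cysteine for glutathione. Its transcript was higher in tunicamycin and in shRent1 cells and lower in emetine, and its hypoxia value was near control. On the brightest probe set, control arrays read 1106, 1169, 1435 and 1305 at the 4 times, from 0 to 4.5 hr. In the same order, hypoxia arrays read 1174, 1158, 1355 and 1427. Tunicamycin arrays read 1873, 1914, 1943 and 2031. All 4 tunicamycin arrays lay above all 4 control arrays, while hypoxia and control overlapped. Emetine arrays read 605, 788, 725 and 709, and shRent1 arrays read 1689.7, 1693, 1770.3 and 1772. The emetine arrays lay wholly below control and the shRent1 arrays wholly above it.

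At DRB addition the fitted SLC7A11 level was 0.73 ± 0.13 log2 units (± SE) above control in tunicamycin, 1.66-fold (limma, adjusted p = 0.00918). In shRent1 cells it was 0.58 ± 0.13 above, 1.50-fold (adjusted p = 0.00996). In emetine it was 0.76 below, 1.69-fold lower (−0.76 ± 0.13, adjusted p = 0.000494). The hypoxia difference was 0.02 ± 0.13 (adjusted p = 0.946). Each 0 hr level leans on the arrays at 0 hr: without the control array the estimates stayed at 0.73 in tunicamycin (adjusted p = 0.179) and 0.58 in shRent1 cells (adjusted p = 0.20). Without the tunicamycin array the estimate was 0.66 (adjusted p = 0.21), without the shRent1 array 0.51 (adjusted p = 0.253), and without the emetine array −0.43 (adjusted p = 0.0917). As a mean over all 4 times, which uses every array, the difference was 0.64 ± 0.07 in tunicamycin (adjusted p = 5.37e-05), 0.47 ± 0.07 in shRent1 cells (adjusted p = 0.000222) and −0.83 ± 0.07 in emetine (adjusted p = 1.77e-07).

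The 3 SLC7A11 probe sets gave the same direction in tunicamycin and emetine and opposite ones in hypoxia. Probe set 207528_s_at read 99.2 to 120 on the hypoxia arrays and 137 to 167 on the control arrays, with no overlap. Probe set 217678_at had a mean hypoxia difference of 0.30 ± 0.06 (SD of 4 times), and 209921_at, used above, 0.03 ± 0.10. In shRent1 cells the 3 means ran from 0.14 ± 0.05 to 0.90 ± 0.06, so the direction was shared and the size was not. The plot by probe set shows this spread.

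**Figure D1:**
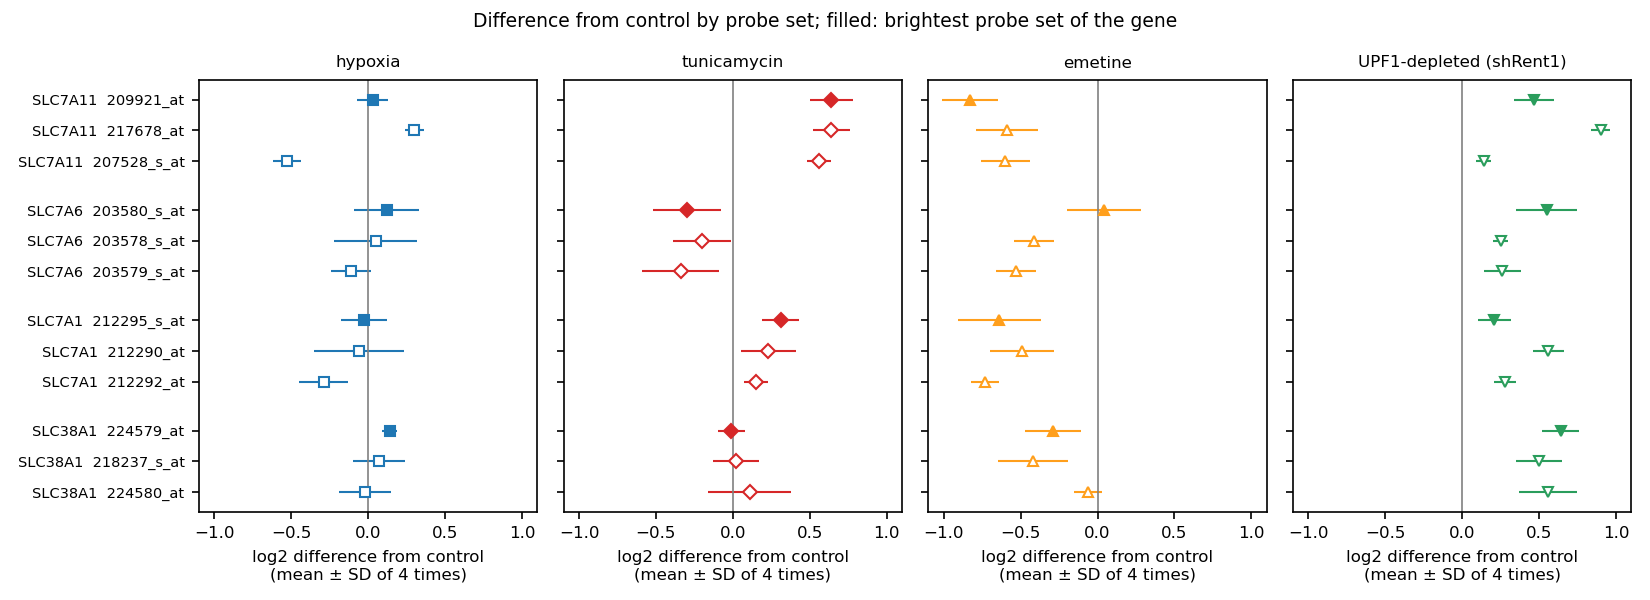
Difference from control (x axis, log2 units) for up to 3 probe sets of SLC7A11, SLC7A6, SLC7A1 and SLC38A1, by condition. Points are means and bars SDs of the 4 times, and filled points mark the brightest probe set of the gene. SLC7A11 probe sets lie on both sides of 0 in hypoxia, and the brightest SLC7A6 probe set stands apart from the other two in emetine.

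SLC3A2 encodes 4F2hc, the heavy chain that carries xCT, LAT1 and the y+LAT exchangers to the cell surface. It was lower in hypoxia at DRB addition and was not called in any other condition. Hypoxia arrays read 914, 1137, 1258 and 1396, against 1513, 1382, 1721 and 1418 in control. The hypoxia values climbed into the control range by 4.5 hr, so the groups overlapped. Tunicamycin arrays read 1833, 1539.8, 1615 and 1665, emetine arrays 1260 to 1424, and shRent1 arrays 1309 to 1468, and all 3 conditions overlapped with control. The fitted hypoxia level was 0.66 below control, 1.58-fold lower (−0.66 ± 0.13, limma, adjusted p = 0.0106). Leaving out the hypoxia array at 0 hr gave −0.42 (adjusted p = 0.415), and without the control array at 0 hr −0.72 (adjusted p = 0.184). The mean over 4 times was −0.37 ± 0.11 (adjusted p = 0.0231). Relative to other transcripts SLC3A2 rose after DRB in hypoxia, by 0.13 ± 0.03 log2 per hr (adjusted p = 0.00978), a call that needed the hypoxia arrays at both ends, being lost on leaving out 0 hr (0.10, adjusted p = 0.301) or 4.5 hr (0.15, adjusted p = 0.093). The slope difference from control was 0.13 ± 0.05 (adjusted p = 0.354). In tunicamycin the level difference was 0.20 ± 0.13 (adjusted p = 0.477).

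SLC7A5 encodes LAT1, the light chain that exchanges large neutral amino acids such as leucine. It was lower in emetine on every array. Emetine arrays read 3549, 3328, 3740.4 and 3384, against 7156, 5845, 6906 and 5592 in control, and the groups did not overlap. The fitted level was 1.97-fold lower (−0.98 ± 0.12, limma, adjusted p = 6.14e-05) and stayed past the threshold without any 1 of the 20 arrays. Tunicamycin arrays read 6268, 5506, 4637 and 4754, hypoxia arrays 6215 to 6619, and shRent1 arrays 5841 to 7005. The tunicamycin level at DRB addition differed by −0.18 ± 0.12 (adjusted p = 0.511), and its mean over 4 times by −0.27 ± 0.09 (adjusted p = 0.0339). SLC7A5 fell after DRB in tunicamycin, at −0.10 ± 0.03 log2 per hr (adjusted p = 0.0422), a call lost in 14 of the 20 fits that leave out an array.

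SLC7A6 encodes y+LAT2, a light chain that exchanges arginine for neutral amino acids. It was higher in shRent1 cells, with arrays at 1351, 1436, 1349 and 1200.3 against 896, 822, 1053 and 886 in control. All shRent1 arrays lay above control. The level difference was 0.68 ± 0.14, 1.61-fold (limma, adjusted p = 0.00633), with 0.85 (adjusted p = 0.0707) without the control array and 0.79 (adjusted p = 0.0958) without the shRent1 array at 0 hr. With the median of its 3 probe sets the difference was 0.28 (adjusted p = 0.133). Tunicamycin arrays read 613 to 866, hypoxia arrays 847 to 1124 and emetine arrays 845 to 1061, all overlapping control, with level differences of −0.05 ± 0.14, −0.03 ± 0.14 and 0.16 ± 0.14 (adjusted p = 0.898, 0.919 and 0.391). The probe sets also differed in emetine: 203580_s_at, the brightest, had a mean difference of 0.04 ± 0.24, while 203578_s_at had −0.41 ± 0.13 and 203579_s_at −0.53 ± 0.13 (SD of 4 times). The emetine direction of SLC7A6 therefore depends on the probe set.

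SLC7A1 encodes CAT-1, the main importer of arginine and lysine. Like SLC7A5 it was lower in emetine, where arrays read 2618, 3255, 2924 and 2930.2 against 5124, 4628, 4829 and 3717 in control, with no overlap. The level was 1.85-fold lower (−0.89 ± 0.11, limma, adjusted p = 5.08e-05), past the threshold without any 1 array. Its 3 brightest probe sets all lay below control in emetine, and the other 2 read 19.3 to 48.6, near the minimum for testing. Tunicamycin arrays read 5752, 5822, 5942 and 5106, and all but the array at 4.5 hr lay above the highest control array. The tunicamycin level differed by 0.19 ± 0.11 (adjusted p = 0.418), and the mean over 4 times by 0.31 ± 0.08 (adjusted p = 0.00892). Hypoxia arrays read 4208 to 4587 and shRent1 arrays 4716 to 5585, and the differences, −0.16 ± 0.11 (adjusted p = 0.408) and 0.13 ± 0.11 (adjusted p = 0.458), did not pass. The next probe sets in brightness, each fitted on its own as an alternative chosen after seeing the data, did pass in one condition each: 212290_at was higher in shRent1 cells (0.47 ± 0.11, adjusted p = 0.0184) and 212292_at lower in hypoxia (−0.41 ± 0.11, adjusted p = 0.0397). These SLC7A1 calls therefore depend on the probe set. In control cells SLC7A1 fell by 0.09 log2 per hr (−0.09 ± 0.03, adjusted p = 0.047), lost in 14 of 20 fits that leave out an array.

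SLC38A2 encodes SNAT2, the sodium-coupled importer of alanine, glutamine and other small neutral amino acids whose transcript is known to rise on amino acid starvation. Its transcript had the steepest fall after DRB among the 9 tested carriers in all 5 conditions, and it was higher at DRB addition in hypoxia, tunicamycin and emetine. Control arrays read 2951, 1165, 467 and 242, from 0 to 4.5 hr. Hypoxia arrays read 4901, 3858, 1504 and 998. Tunicamycin arrays read 5641, 2914, 850.3 and 222. All 3 conditions covered ranges that overlap because the values fell so far within each. Emetine arrays read 6296, 6488, 4205 and 3231, and shRent1 arrays read 3379.6, 2584, 869 and 430.1. Every emetine array lay above every control array, and at 1.5, 3 and 4.5 hr hypoxia and shRent1 arrays lay above the control array of the same time.

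The fitted SLC38A2 level at DRB addition was 1.95-fold above control in hypoxia (0.96 ± 0.21, limma, adjusted p = 0.0178). It was 2.45-fold above in tunicamycin (1.29 ± 0.21, adjusted p = 0.00645) and 2.51-fold in emetine (1.33 ± 0.21, adjusted p = 0.000362). The fitted shRent1 difference was 0.52 ± 0.21 (adjusted p = 0.125). Measured at 0 hr, each array differed less from the control array. These log2 differences were 1.09 for emetine, 0.93 for tunicamycin, 0.73 for hypoxia and 0.20 for shRent1 cells. The fold values above therefore belong to fitted lines and exceed the measured ones. The tunicamycin and emetine calls stayed without any 1 of the 20 arrays. The hypoxia call was lost without the hypoxia array at 0 hr (0.97, adjusted p = 0.273) or at 1.5 hr (0.91, adjusted p = 0.0521). As a mean over 4 times the tunicamycin difference was 0.75 ± 0.38 (adjusted p = 0.183) on this probe set and 1.04 and 1.05 on the other 2, and the emetine difference was 2.62 ± 0.38 (adjusted p = 2.61e-05).

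The loss of SLC38A2 after DRB was slowest in emetine. At 4.5 hr its intensity was 8.19% of the 0 hr value in control, 20.4% in hypoxia, 3.93% in tunicamycin, 12.7% in shRent1 cells and 51.3% in emetine. The other 2 probe sets gave 12.0% and 13.8% in control, 25.5% and 26.0% in hypoxia, 8.80% and 10.4% in tunicamycin, 21.6% and 21.5% in shRent1 cells, and 55.2% and 53.8% in emetine. The 3 probe sets put emetine highest and tunicamycin lowest in every case, though all 3 carry the suffix _s_at or _x_at of sets that may detect related transcripts. The fitted slope was −0.81 ± 0.07 log2 per hr in control, −0.55 ± 0.07 in hypoxia, −1.05 ± 0.07 in tunicamycin and −0.70 ± 0.07 in shRent1 cells (limma, adjusted p = 3.02e-06, 0.000144, 2.63e-06 and 1.36e-05). In emetine it was −0.23 ± 0.07 (adjusted p = 0.242). Ranked from the steepest fall among 14478 genes, SLC38A2 stood at place 45 in control, 117 in hypoxia, 7 in tunicamycin, 80 in shRent1 cells and 115 in emetine.

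The emetine slope was 0.58 ± 0.08 log2 per hr higher than the control slope (limma, adjusted p = 0.000201), a call kept without any 1 of the 20 arrays. Fitted each on its own, an alternative chosen after seeing the data, the other 2 probe sets of SLC38A2 gave 0.47 ± 0.07 and 0.43 ± 0.06. No other slope difference of SLC38A2 passed: 0.26 ± 0.08 in hypoxia (adjusted p = 0.253), −0.24 ± 0.08 in tunicamycin (adjusted p = 0.0954) and 0.11 ± 0.08 in shRent1 cells (adjusted p = 0.905). The first interval after DRB differed from the later ones, which is a description with 1 array per point. From 0 to 1.5 hr the log2 change was −1.34 in control, −0.95 in tunicamycin, −0.39 in shRent1 cells, −0.35 in hypoxia and 0.04 in emetine. From 1.5 to 3 hr it was −1.32 in control, −1.78 in tunicamycin, −1.57 in shRent1 cells, −1.36 in hypoxia and −0.63 in emetine. Hypoxia and shRent1 cells thus lost little in the first interval and about as much as control in the next, and a straight line describes these courses only in part.

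**Figure D2:**
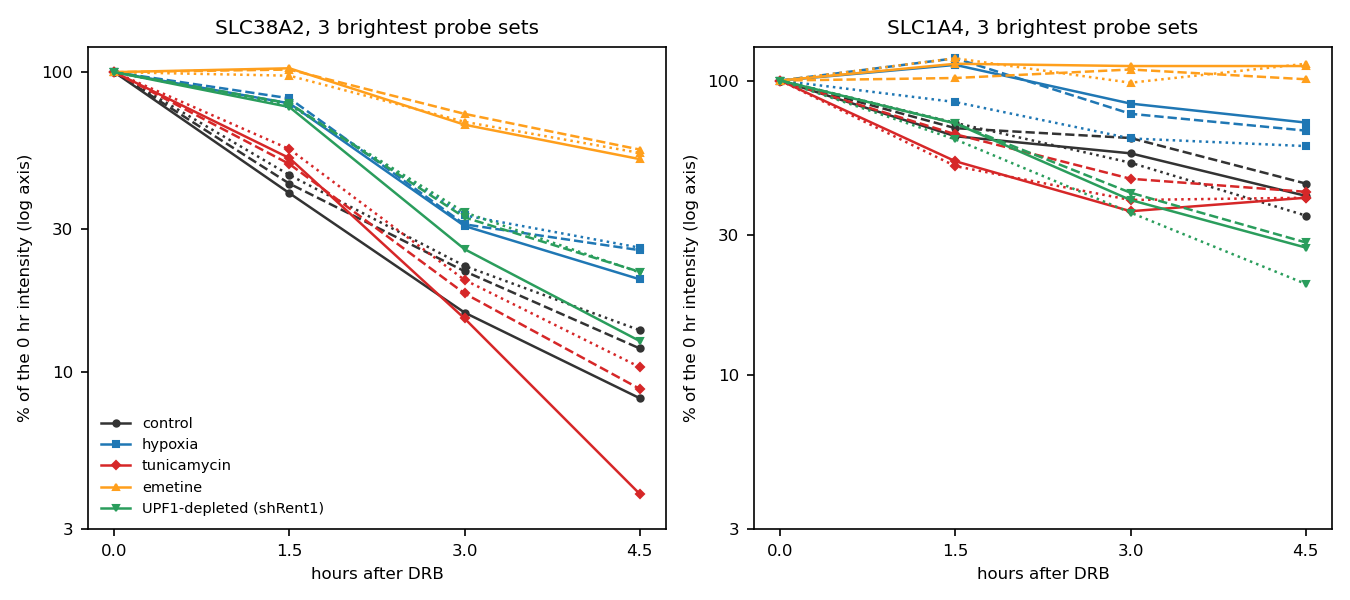
Intensity of SLC38A2 (left) and SLC1A4 (right) after DRB as a percentage of the 0 hr array of the same condition (y axis, log scale) against hours after DRB (x axis). Solid, dashed and dotted lines are the 3 brightest probe sets of each gene, with 1 array per point. Emetine is the highest line in both panels at 4.5 hr, and SLC38A2 in tunicamycin is the lowest in the left panel.

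SLC38A1 encodes SNAT1, a related glutamine importer. In contrast to SLC38A2 it had no slope past the threshold in any condition, with estimates from −0.04 to 0.00 log2 per hr. It was higher in shRent1 cells, where arrays read 1389, 1489, 1358 and 1261 against 930, 849, 891 and 858 in control, with no overlap. The level difference was 0.68 ± 0.12, 1.60-fold (limma, adjusted p = 0.00399), and without the shRent1 array at 0 hr 0.80 (adjusted p = 0.0684). Emetine arrays read 661, 814, 727 and 693, all below control. The emetine level was 1.26-fold lower (−0.34 ± 0.12, adjusted p = 0.0478), a call lost in 14 of the 20 fits that leave out an array, without the filter on low values (−0.34, adjusted p = 0.0688), with the median of its probe sets (−0.16, adjusted p = 0.341) and without _s_at and _x_at probe sets (−0.34, adjusted p = 0.0574). The mean over 4 times was −0.29 ± 0.07 (adjusted p = 0.0021). Hypoxia arrays, at 939.6 to 1001, lay above the control arrays by a small margin, and the level difference was 0.11 ± 0.12 (adjusted p = 0.655). Tunicamycin arrays read 809.8 to 930.5 (−0.01 ± 0.12, adjusted p = 0.988).

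SLC1A5 encodes ASCT2, an exchanger of glutamine and other neutral amino acids. Emetine arrays read 431, 414, 428 and 499.6, against 654, 510.3, 614 and 469 in control. The emetine array at 4.5 hr lay within the control range and the others below it. The level was 1.53-fold lower (−0.61 ± 0.16, limma, adjusted p = 0.00855), and without the control array at 0 hr −0.42 (adjusted p = 0.27). Arrays of shRent1 cells read 752, 802, 757 and 627, tunicamycin arrays 652 to 748, and hypoxia arrays 451 to 544. The shRent1 level difference was 0.35 ± 0.16 (adjusted p = 0.169) and the mean over 4 times 0.39 ± 0.11 (adjusted p = 0.013). In hypoxia and tunicamycin the level differences, −0.34 ± 0.16 (adjusted p = 0.221) and 0.03 ± 0.16 (adjusted p = 0.955), did not pass.

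SLC1A4 encodes ASCT1, which carries serine, alanine and cysteine. It was the other carrier that fell clearly after DRB, and the fall was not seen in emetine. Control arrays read 511, 331, 289.6 and 207, and tunicamycin arrays 642, 342, 231 and 257. Arrays of shRent1 cells read 651, 466, 256 and 177, and hypoxia arrays 328, 369.5, 274 and 236. Emetine arrays read 302, 343, 339 and 339. The emetine arrays held a flat level inside the falling control range, below control at 0 hr and above it from 1.5 hr on.

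SLC1A4 slopes were −0.27 ± 0.06 log2 per hr in control, −0.30 ± 0.06 in tunicamycin and −0.43 ± 0.06 in shRent1 cells (limma, adjusted p = 0.00219, 0.00188 and 5.89e-05). The slope was −0.12 ± 0.06 in hypoxia (adjusted p = 0.108) and 0.03 ± 0.06 in emetine (adjusted p = 0.814). The control call was lost without the control array at 0 hr (−0.22, adjusted p = 0.136) or at 4.5 hr (−0.27, adjusted p = 0.0553), and the tunicamycin call without its array at 0 hr (−0.14, adjusted p = 0.384). The emetine slope was 0.31 ± 0.08 above the control slope (adjusted p = 0.0207), lost without the control array at 0 hr (0.26, adjusted p = 0.243) or 4.5 hr (0.27, adjusted p = 0.192) and without the emetine array at 0 hr (0.25, adjusted p = 0.255) or 4.5 hr (0.37, adjusted p = 0.0694). At DRB addition the emetine level was 1.55-fold below control (−0.63 ± 0.22, adjusted p = 0.0406), lost in 8 of the 20 fits that leave out an array and with the median of its probe sets (−0.26, adjusted p = 0.302), with a mean over 4 times of 0.06 ± 0.25 (adjusted p = 0.85). Of the 5 SLC1A4 probe sets, 212811_x_at and 212810_s_at also fell in control, tunicamycin and shRent1 cells. In hypoxia they stood at 67.6% and 59.9% of the 0 hr value at 4.5 hr, and the brightest at 72.0%. Their emetine levels at DRB addition, fitted by limma, were −0.63 ± 0.18 (adjusted p = 0.0175) for 212811_x_at and −0.21 ± 0.19 (adjusted p = 0.429) for 212810_s_at. Of the rest, 209611_s_at read 47.5 to 78.6. At 4.5 hr it stood at 73.5% of its 0 hr value in hypoxia and 68.0% in shRent1 cells. In control, tunicamycin and emetine it did not fall (112%, 114% and 114%). The last, 244377_at, read 264 in tunicamycin at 0 hr, 33.1 at 1.5 hr, and 64.7 in control at 0 hr. After 0 hr that probe set was at 16.7 to 33.1 in all conditions, around the minimum for testing.

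**Figure D3:**
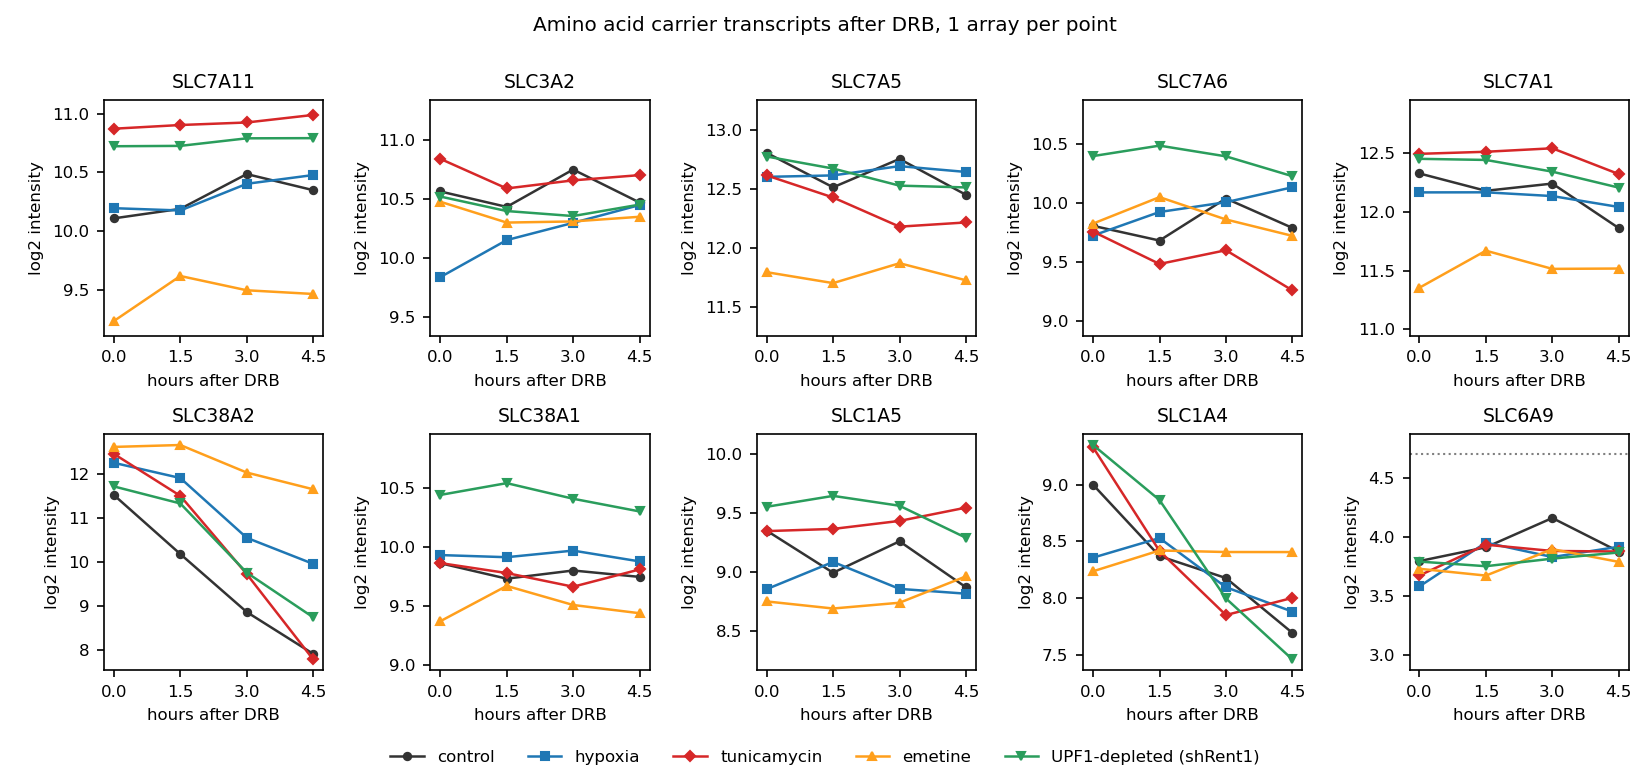
Log2 intensity of the brightest probe set (y axis) against hours after DRB (x axis) for each of the 10 carriers, with 1 array per point and 1 line per condition. The y axis spans at least 2 log2 units and is wider for SLC38A2, and the dotted line for SLC6A9 marks the minimum for testing. SLC38A2 and SLC1A4 fall in control cells, and the emetine lines of SLC7A11, SLC7A5 and SLC7A1 lie below the others.

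Across the 9 tested carriers, emetine changed the most levels at DRB addition. There 1 was higher (SLC38A2) and 6 were lower, against 18.9% of all genes tested higher and 19.8% lower, and the median difference of the carriers was −0.61 against −0.08 for all genes. In tunicamycin 2 were higher (SLC7A11 and SLC38A2) and 0 lower, against 1.97% and 0.926% of all genes, with a median of 0.15 against −0.03. In hypoxia 1 was higher and 1 lower, against 3.21% and 4.44%, with a median of −0.15 against −0.02. In shRent1 cells 3 were higher (SLC7A11, SLC38A1 and SLC7A6) and 0 lower, against 9.68% and 3.99%, with a median of 0.47 against 0.01. The 4 comparisons share the control arrays and are not independent. With so few carriers these counts are a description, and the emetine count stands beside the largest background of the 4. At an unadjusted p under 0.05 limma also had 0 carriers lower in tunicamycin and in shRent1 cells.

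**Figure D4:**
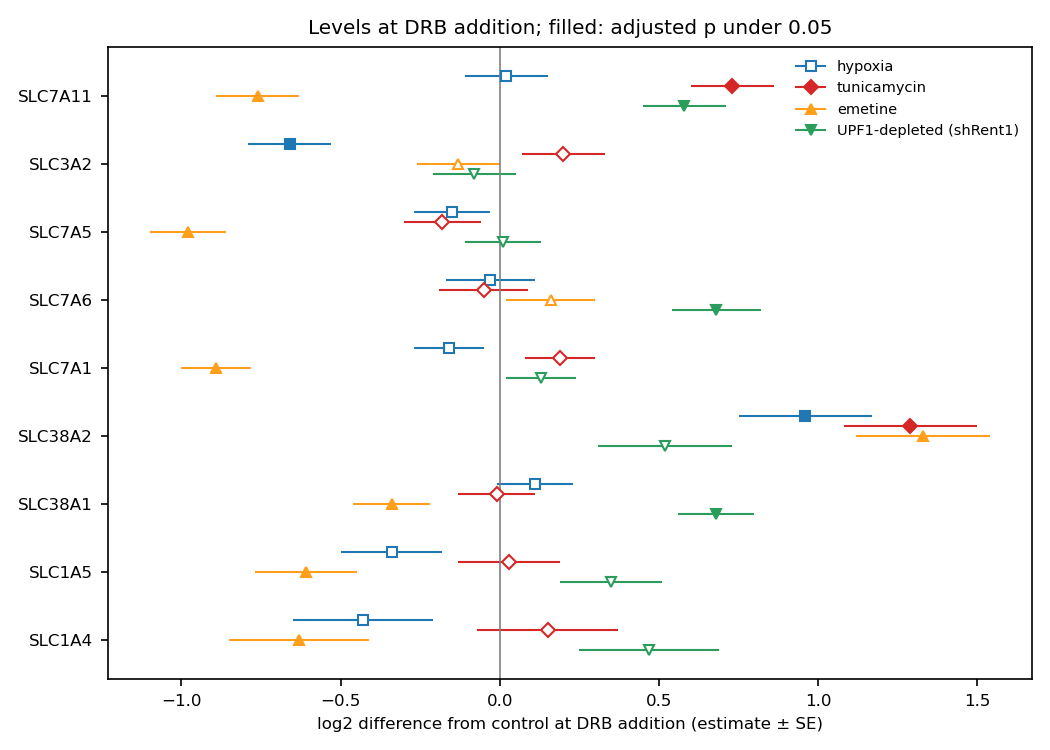
Difference from control at DRB addition (x axis, log2 units, estimate ± SE from limma) for the 9 tested carriers in 4 conditions. Filled symbols have an adjusted p under 0.05. SLC38A2 is to the right of 0 in all conditions, and 6 carriers are filled to the left of 0 in emetine.

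Counted without a model, as arrays of a condition that all lay above or all below the 4 control arrays, hypoxia had 1 of the 10 carriers above (SLC38A1), against 5.10% of genes above and 7.30% below. Tunicamycin had 1 above (SLC7A11), against 5.79% and 5.90%. Emetine had 1 above and 4 below (SLC7A11, SLC7A5, SLC7A1 and SLC38A1), against 22.4% and 22.6%. In shRent1 cells 3 were above, against 11% and 6.87%. As means over 4 times, the carriers called were 1 higher and 1 lower in hypoxia (9.99% and 9.93% of genes), 2 higher and 1 lower in tunicamycin (11% and 11.5%), 1 higher and 5 lower in emetine (28.4% and 35.4%), and 4 higher and 0 lower in shRent1 cells (17.7% and 13.7%).

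The stresses were also set against each other, since all 3 agents are known to limit translation. Against hypoxia, tunicamycin had 2 carriers higher, the partners SLC7A11 (0.71 ± 0.13, limma, adjusted p = 0.00343) and SLC3A2 (0.86 ± 0.13, adjusted p = 0.00124), and 0 lower, with 6.71% of genes higher and 6.57% lower. The SLC7A11 call was lost without the tunicamycin array at 0 hr (0.64, adjusted p = 0.11), and the SLC3A2 call without the hypoxia (0.62, adjusted p = 0.132) or tunicamycin (0.70, adjusted p = 0.081) array at 0 hr. Against emetine, tunicamycin had 5 higher and 0 lower, with 14% of genes higher and 17.7% lower. These were SLC7A11 (1.49 ± 0.13, adjusted p = 4.07e-06), SLC7A1 (1.07 ± 0.11, adjusted p = 1.71e-05), SLC7A5 (0.80 ± 0.12, adjusted p = 0.000376), SLC1A4 (0.79 ± 0.22, adjusted p = 0.0177) and SLC1A5 (0.64 ± 0.16, adjusted p = 0.00821). The SLC1A4 and SLC1A5 calls were lost without the tunicamycin array at 0 hr (0.11 and 0.55, adjusted p = 0.811 and 0.172), and SLC1A4 also without the emetine array at 0 hr (0.58, adjusted p = 0.319). Fitted SLC38A2 levels in tunicamycin and emetine differed by −0.03 ± 0.21 (adjusted p = 0.93).

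Taken as means over 4 times, the same pairs of stresses gave calls in both directions. Against hypoxia, tunicamycin then had 4 carriers higher (SLC7A11, SLC3A2, SLC7A1 and SLC1A5, by 0.34 to 0.61) and 2 lower, SLC7A5 (−0.28 ± 0.09, limma, adjusted p = 0.0183) and SLC7A6 (−0.42 ± 0.11, adjusted p = 0.00683), with 18.1% of genes higher and 20% lower. Against emetine 6 were higher (SLC7A11, SLC3A2, SLC7A5, SLC7A1, SLC38A1 and SLC1A5, by 0.28 to 1.46) and 2 lower, with 29.4% of genes higher and 26.3% lower. The lower ones were SLC38A2, 3.66-fold (−1.87 ± 0.38, adjusted p = 0.000753), and SLC7A6 (−0.34 ± 0.11, adjusted p = 0.0164).

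For slopes after DRB, the carriers higher or lower than control numbered 2 and 0 in emetine (SLC38A2 and SLC1A4), against 12.8% and 1.58% of genes. They numbered 0 and 0 in tunicamycin (4.66% and 0.58%), 0 and 0 in hypoxia (0.0345% and 0%) and 0 and 0 in shRent1 cells (0.0345% and 0.00691%). At limma's unadjusted p under 0.05, 2 carriers had a higher slope in hypoxia, 2 a lower slope in tunicamycin and 0 either in shRent1 cells. Within conditions, 0 rose and 3 fell in control (SLC38A2, SLC1A4 and SLC7A1), against 14.2% and 17.5% of genes. In hypoxia 1 rose and 1 fell (15.3% and 14.2%), in tunicamycin 0 rose and 3 fell (11% and 11.4%), and in shRent1 cells 0 rose and 2 fell (11% and 16.5%). In emetine 0 rose and 0 fell, where 0.0691% and 0.325% of genes were called and at an unadjusted p under 0.05 limma had 1 falling, SLC38A2.

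**Figure D5:**
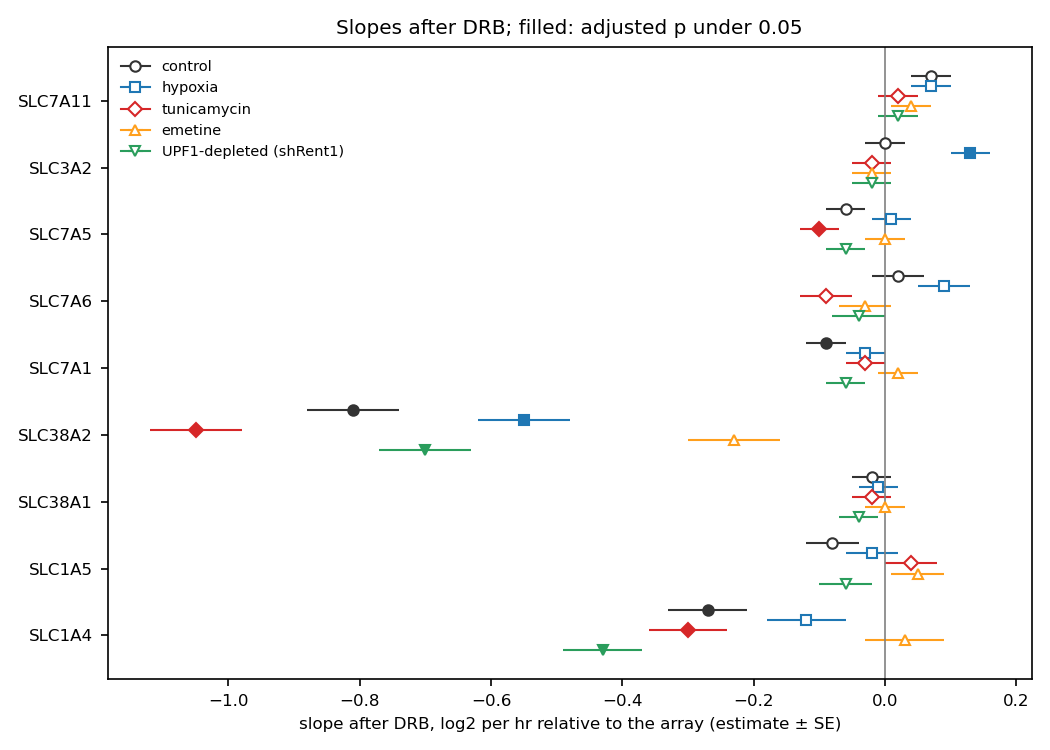
Slope after DRB (x axis, log2 units per hr relative to the array, estimate ± SE from limma) for the 9 tested carriers in 5 conditions. Filled symbols have an adjusted p under 0.05. SLC38A2 spans −1.05 in tunicamycin to −0.23 in emetine, and 7 carriers lie within 0.13 of 0 in all conditions.

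Gene lists of amino acid handling other than the carriers were counted in the same way at DRB addition. The shares of all genes called higher and lower, against which each list is to be read, were again 1.97% and 0.926% in tunicamycin, 18.9% and 19.8% in emetine, 3.21% and 4.44% in hypoxia, and 9.68% and 3.99% in shRent1 cells, and the medians of all genes lay between −0.08 and 0.01. Of 16 regulators of the integrated stress response, 8 were higher in tunicamycin (median 0.57), 8 higher and 3 lower in emetine (median 0.28), 6 higher in shRent1 cells (median 0.43) and 1 higher and 1 lower in hypoxia (median 0.03). DDIT3, which encodes the transcription factor CHOP, was 33.2-fold higher in tunicamycin (5.05 ± 0.32, limma, adjusted p = 3.27e-06) and 19.8-fold in emetine (4.31 ± 0.32, adjusted p = 1.18e-06). The ATF4 transcript itself, given because the carriers were chosen as linked to it, differed by −0.26 ± 0.09 in hypoxia (adjusted p = 0.113), 0.16 ± 0.09 in tunicamycin (adjusted p = 0.415), 0.26 ± 0.09 in emetine (adjusted p = 0.0463) and 0.59 ± 0.09 in shRent1 cells (adjusted p = 0.0018). These are transcript levels, and ATF4 is known to be controlled mainly at translation.

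Of 15 tested ATF4 target enzymes and effectors, 5 were higher in tunicamycin and 0 lower (median 0.36), while in emetine 2 were higher and 7 lower (median −0.25). SESN2, a stress-induced inhibitor of mTORC1, was 15.3-fold higher in tunicamycin (3.93 ± 0.24, limma, adjusted p = 2.77e-06) and 2.29-fold in emetine (1.19 ± 0.24, adjusted p = 0.00176). CHAC1, which degrades glutathione, was 8.65-fold higher in tunicamycin (3.11 ± 0.28, adjusted p = 7.28e-05). PYCR1, an enzyme of proline synthesis, was lower in emetine (−0.46 ± 0.09, adjusted p = 0.00197). In hypoxia 0 of the 15 were called by limma (1 at an unadjusted p under 0.05), with a median of 0.02. In shRent1 cells 2 were higher and 0 lower, a count near that of all genes. The list median there was 0.25 against 0.01 for all genes, and all 15 differences were positive.

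Among 12 cystine and glutathione genes, 2 were higher in tunicamycin, 3 higher and 4 lower in emetine, 2 higher in hypoxia and 2 higher in shRent1 cells. The list medians were −0.15 in tunicamycin, 0.08 in emetine, 0.05 in hypoxia and 0.24 in shRent1 cells. NFE2L2, which encodes NRF2, was 1.76-fold higher in tunicamycin (0.82 ± 0.13, limma, adjusted p = 0.00444). BACH1, a repressor at antioxidant response elements, was higher in both stresses. It was 1.41-fold higher in tunicamycin (0.49 ± 0.10, limma, adjusted p = 0.0265) and 2.09-fold higher in emetine (1.07 ± 0.10, adjusted p = 8.51e-06). GSR, glutathione reductase, was lower in emetine (−0.75 ± 0.10, adjusted p = 9.96e-05). Of 16 amino acid sensing genes of the mTORC1 pathway, 0 were called by limma in tunicamycin (1 higher and 4 lower at an unadjusted p under 0.05) or in hypoxia (2 lower), 4 were higher and 2 lower in emetine, and 1 was lower in shRent1 cells. Beside the shares of all genes, the emetine count of this list is near the background, and its medians ran from −0.12 in tunicamycin to 0.06 in shRent1 cells. RRAGC, a Rag GTPase at the lysosome, was 4.32-fold higher in emetine (2.11 ± 0.14, adjusted p = 5.21e-07), as was LAMTOR3 of its lysosomal anchor, 2.33-fold (1.22 ± 0.15, adjusted p = 4.99e-05).

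Of 19 other plasma membrane amino acid carriers, 0 were called by limma in tunicamycin (2 lower at an unadjusted p under 0.05), 1 higher and 1 lower in hypoxia, 2 higher and 1 lower in emetine, and 2 higher and 2 lower in shRent1 cells. The emetine count was below the share of all genes, and the list medians ran from −0.14 in emetine to 0.05 in hypoxia. SLC1A3, a glutamate importer, was 2.38-fold higher in emetine (1.25 ± 0.14, limma, adjusted p = 3.01e-05), and SLC7A9, a light chain of cystine transport, 2.32-fold (1.22 ± 0.24, adjusted p = 0.00175). Of 11 lysosomal, mitochondrial and other carriers, 0 were called by limma in tunicamycin (2 lower at an unadjusted p under 0.05), 1 was lower in hypoxia, 3 were higher and 2 lower in emetine, and 3 were higher in shRent1 cells. Its emetine count was near the background, and the medians ran from −0.13 in hypoxia to 0.29 in shRent1 cells. SLC38A7 was higher (0.85 ± 0.17, adjusted p = 0.00173) and SLC25A15, the mitochondrial ornithine carrier, lower (−0.80 ± 0.11, adjusted p = 0.000119) in emetine.

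The genes whose log2 values over the 20 arrays ran most like SLC7A11 were WARS1 (Pearson r = 0.946), FAM219B (0.930) and ZFP69B (0.930). For SLC38A2 they were ZNF805 (0.964), PAXBP1 (0.960) and PPP1R15B (0.957), and for SLC3A2 CRELD1 (0.856), TRMT1 (0.845) and STIP1 (0.843). These are descriptions over arrays that share conditions and times.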

How the data were processed

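U2OS RNA was measured on 20 Affymetrix 3' arrays. The authors made the deposited linear-scale intensity values by RMA (version not given), per the submitters' processing notes; each value is relative to its array's typical transcript. Array medians were 37.3 to 40.4 and array correlations 0.93 to 0.996.

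Values were taken to log2. GEO's platform annotation named the probe sets, 41091 of them with 1 gene symbol, and a gene's value is that of its brightest probe set on average. Genes above the 40th percentile of probe set means (log2 4.70) were tested, 14478 in all. The suffixes _s_at and _x_at mark probe sets that may cross-hybridize.

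Fits used limma 3.58.1 in R 4.3.3. A model of condition, time as a factor and a time slope per condition (8 residual degrees of freedom) gave levels at DRB addition and slope differences; a line per condition (10 residual degrees of freedom) gave slopes within conditions. P-values were Benjamini-Hochberg adjusted over all genes tested, threshold 0.05. The fits were tested on simulated data.

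The members and lists were chosen with earlier results of these data known. Genes named beyond the members are UPF1, ATF4, the 2 largest statistics of each list in tunicamycin and in emetine where given, the 3 genes most like SLC7A11, SLC3A2 and SLC38A2, and cell type markers. Promoter windows are RefSeq's. Alternatives were the filter, the probe set rule, quantile scaling, centring on ribosomal protein genes, trended robust variances, other models and leaving out each array. Fits of each probe set on its own were added after seeing the data.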

Additional observations from a re-analysis of the deposited data

Results flagged for a closer look

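Among 45 groups of 4 arrays, 2 held an array apart from the rest by Dixon's criterion, where chance marks about 1 group in 20. The 4 arrays of a group are 4 DRB times and not replicates, so this rate need not hold here. The 2 arrays were the hypoxia array at 1.5 hr for SLC1A5 (log2 9.09, above the other 3) and the emetine array at 0 hr for SLC1A4 (log2 8.24, below the other 3). The latter was the only array of its group without DRB.

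Several carriers responded differently to 2 stresses, by limma's test of the difference at DRB addition. Tunicamycin exceeded hypoxia for SLC7A11 by 0.71 and for SLC3A2 by 0.86 log2 units (adjusted p = 0.00343 and 0.00124). It exceeded emetine for SLC7A11 by 1.49, for SLC7A1 by 1.07, for SLC7A5 by 0.80, for SLC1A4 by 0.79 and for SLC1A5 by 0.64 (adjusted p = 4.07e-06, 1.71e-05, 0.000376, 0.0177 and 0.00821). As a mean over 4 times the SLC1A4 difference was 0.03 ± 0.25 (limma, adjusted p = 0.919). As given above, both calls against hypoxia and the SLC1A4 and SLC1A5 calls against emetine were lost without a single 0 hr array. The slope after DRB was higher in emetine than in control for SLC38A2, by 0.58 log2 per hr, and for SLC1A4, by 0.31 (adjusted p = 0.000201 and 0.0207).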

How the results depend on the processing

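Counts below are carriers called at an adjusted p under 0.05 in limma, higher and lower together. Leaving out _s_at and _x_at probe sets leaves SLC3A2, SLC7A5, SLC38A2 and SLC7A6 with no probe set to test, so fewer carriers could be called. Under it the level count went from 2 to 0 in hypoxia and from 7 to 4 in emetine, the slope difference count in emetine from 2 to 0, and the slope count from 3 to 1 in control, from 2 to 0 in hypoxia, from 3 to 1 in tunicamycin and from 2 to 0 in shRent1 cells. Some of these losses were of carriers still tested. SLC38A1 lost its emetine level call (−0.34, limma, adjusted p = 0.0574). SLC1A4, left with 244377_at alone, lost its slope calls in control (−0.29, adjusted p = 0.185) and shRent1 cells (−0.28, adjusted p = 0.208). Its emetine slope difference was lost too (0.33, adjusted p = 0.139). A line per condition gave 1 level call in hypoxia. The median of a gene's probe sets gave 4 calls between tunicamycin and hypoxia in place of 2, and 6 slopes in hypoxia in place of 2. The mean over 4 times gave 6 calls between tunicamycin and hypoxia (4 higher, 2 lower) and 8 between tunicamycin and emetine (6 higher, 2 lower), in place of 2 and 5 that were all higher.

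Leave-one-out fits aside, a value called as reported or under the alternative changed sign in 4 cases. A further 27 values called in neither changed sign too, such as SLC38A2 between tunicamycin and hypoxia, from 0.33 to −0.80 as a mean over 4 times. SLC1A4 in emetine was 0.06 as a mean over 4 times (adjusted p = 0.85). With the median of probe sets SLC7A6 was −0.41 in emetine (adjusted p = 0.0122) and 0.41 between tunicamycin and emetine (adjusted p = 0.016), and the SLC38A1 slope in hypoxia was 0.10 (adjusted p = 0.0299).

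Leaving out each array in turn gave level counts of 0 to 2 in hypoxia, 1 to 2 in tunicamycin, 4 to 7 in emetine, 0 to 3 in shRent1 cells, 0 to 3 between tunicamycin and hypoxia and 3 to 6 between tunicamycin and emetine. Slope difference counts were 1 to 3 in emetine, 0 to 1 in tunicamycin, and 0 to 0 in hypoxia and shRent1 cells. Slope counts were 1 to 3 in control, hypoxia and tunicamycin, 2 to 2 in shRent1 cells and 0 to 0 in emetine. No paired analysis was possible because the labels give no replicate numbers. Arrays of the same DRB time are matched by design, and the fits of levels and of slope differences hold time as a factor, while the slopes within conditions do not. With 1 array per condition and time, the spread of cultures could not be measured.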
